A study of Zea mays with 9 samples.

Results

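The 28 maize genes described here had their highest normalized counts in all 3 libraries grown under artificial low R:FR light, while their mean under biological low R:FR light stayed near that of the weed-free control. R:FR is the ratio of red to far-red light, which plants sense through phytochromes and which falls when neighbouring leaves reflect far-red light. The members were chosen by their own values from a table of 30184 genes. A member had a mean over the 9 libraries of at least 20 normalized counts, a weed-free mean under 20000, and a lowest artificial value above all 6 other values. Its log2 ratio of artificial to weed-free means, with 1 added to each mean, was at least 0.8, and its log2 ratio of biological to weed-free means lay between -0.3 and 0.3. 1 gene was left out by name. Since the rule used every contrast between the groups, the members' levels, ratios and calls are descriptions that support nothing by themselves.

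Each library was a pool of second leaves from 3 seedlings of the hybrid CG108 x CG102, aged 9 days, and each group held 3 libraries. The study's methods place its experiments in randomized complete blocks with 3 replications, without saying which block each RNA pool belongs to. Nothing in the labels says whether the pools of a group came from separate growth runs, so p-values measure only the spread between these pools. The main test used no block, and a fit with the replicate number as block is given at the end. Per the labels, the weed-free control received an R:FR of about 1.5, biological low R:FR light of about 0.6 came from a surrogate weed grown beside the maize, and artificial low R:FR light of about 0.6 came from far-red bulbs and diode bars, and the study's text gives other ratios. All groups shared the same genotype and, per the labels, a similar incoming light quantity, and the study asked how maize seedlings respond to these competition cues.

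The reads recovered from the normalized counts numbered 22775151 to 40283408 per library, and at these depths a normalized count stands for about 1 read. Their totals raised a doubt about the labels, because those of the weed-free and artificial libraries came close to the read totals that the study lists for the other of the pair and not to those for their own group. The text follows the labels as deposited, and with them exchanged the 28 genes would be highest in the control and lower under both sources of low R:FR light. Biological replicate 3 stood apart, with 897 genes at least 4-fold below the level of the other libraries against 16 to 120 genes in each of the rest. Several leaf markers were abundant in every library, among them the mesophyll gene pep1 (582580 to 763910 normalized counts) and the bundle sheath gene me3 (154527 to 213643). Other entries under the same mesophyll names were far lower, such as Pep1 (LOC103645871) at 58.7 to 82.4 and PDK1 (LOC541677) at 416 to 553. The shoot meristem gene kn1 reached at most 5.06.

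Only 4 of the 28 genes carry a name in the annotation that tells their family. dxs2 encodes a 1-deoxy-D-xylulose 5-phosphate synthase, the enzyme that opens the plastid (MEP) route to isoprenoids, from which carotenoids, the phytol tail of chlorophyll, gibberellins and abscisic acid are made. pht2 encodes an inorganic phosphate transporter, HAK17 a potassium transporter of the HAK/KUP/KT family, and PDIL5-4 a protein disulfide isomerase-like protein of the family that forms and reshuffles disulfide bonds as proteins fold. The other 24 carry an identifier or a clone name and are given no role here.

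The members formed a small and narrow set. Of 20938 genes that passed the limits on level, 732 (3.5%) had every artificial value above all 6 others, against 1177 (5.62%) with every artificial value below them. Of the 732 genes 71 had a log2 ratio of at least 0.8, and 28 of the 71 had a biological ratio within the band, with 37 above it and 6 below. Under the looser condition that artificial and weed-free libraries did not overlap, 376 genes had a log2 ratio of at least 0.8. Among those 376, the biological ratio was above the band in 315 genes, within it in 55 and below it in 6.

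**Figure D1:**
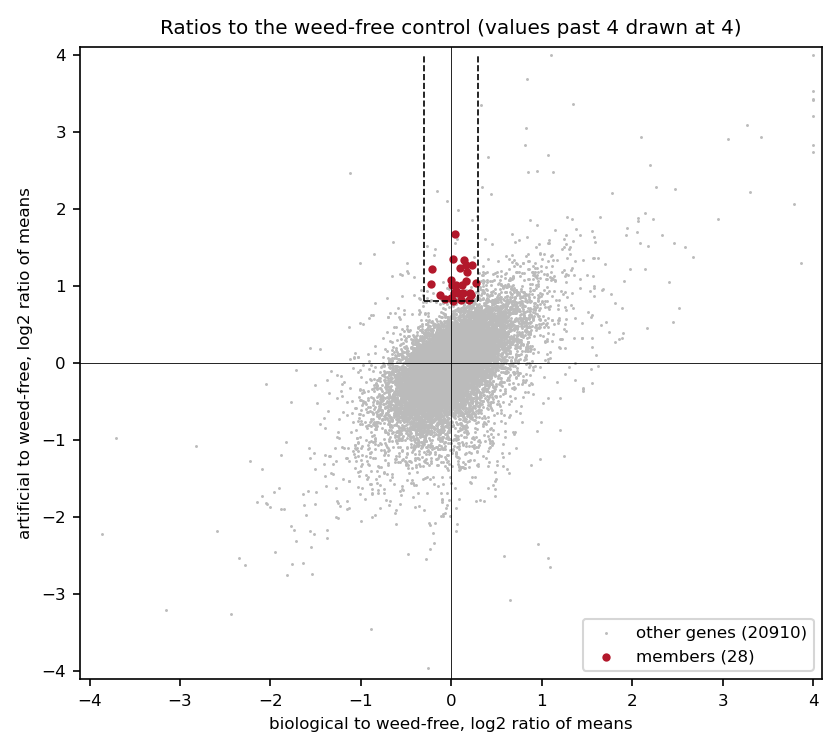
Log2 ratio of artificial to weed-free means (vertical axis) against log2 ratio of biological to weed-free means (horizontal axis), 1 point a gene, with the 28 members in red and the other 20910 genes that passed the limits on level in grey. The dashed lines are the limits of the rule, and the members sit between 0.80 and 1.68 on the vertical axis among other genes in the same window.

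The log2 ratio of artificial to weed-free means ran from 0.80 to 1.68 over the members, with a median of 1.01, which is 1.75-fold to 3.29-fold with a median of 2.03-fold, and it was at least 1 in 15 members. The log2 ratio of biological to weed-free means ran from -0.23 to 0.28 with a median of 0.09, and the biological mean was above the weed-free mean in 23 members and below it in 5. Artificial means ran from 32.2 normalized counts in LOC118472312 to 1649 in LOC103646485, and they were under 100 in 12 members, from 100 to 500 in 6 and over 500 in 10. Separation was often slight: the lowest artificial value was 1.02 to 1.75 times the highest of the other 6, with a median of 1.17, and it was under 1.1 in 8 members and over 1.3 in 9.

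**Figure D2:**
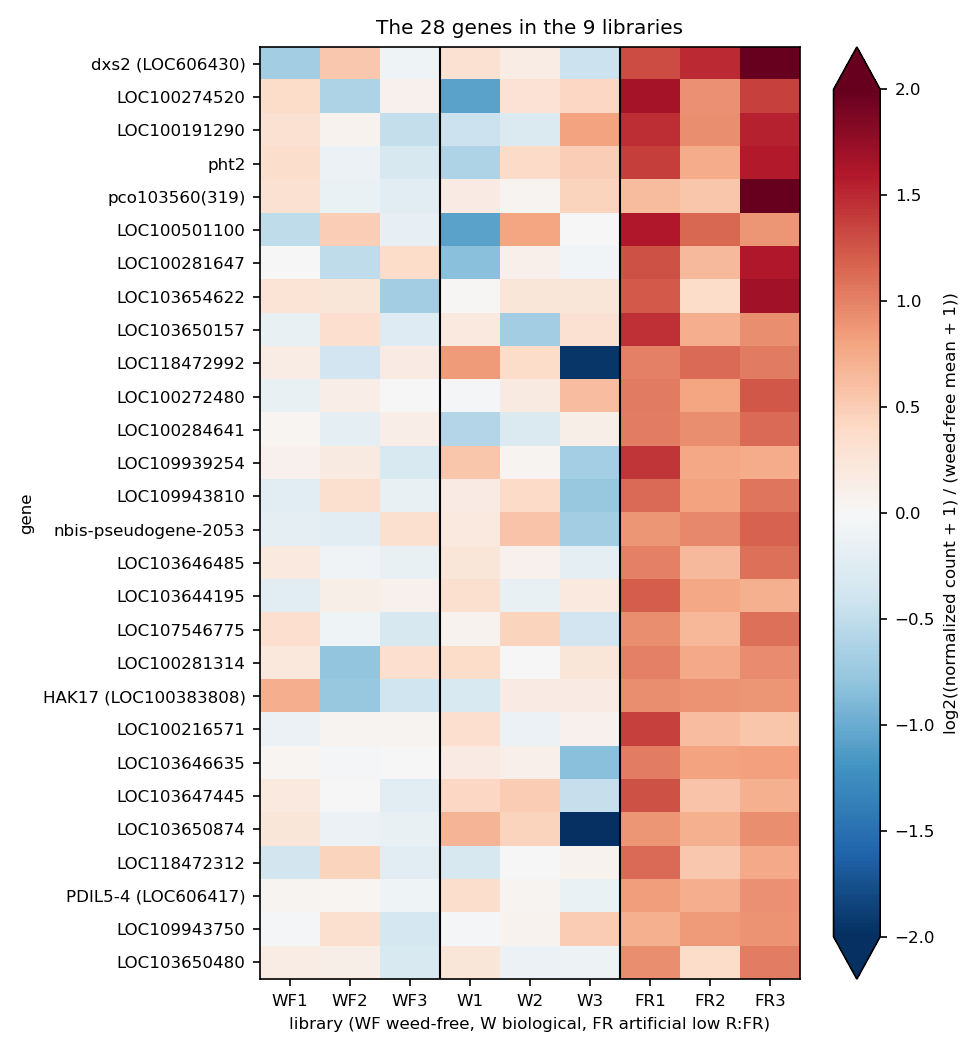
Normalized counts of the 28 genes (rows) in the 9 libraries (columns, replicates 1 to 3 of the weed-free, biological and artificial groups) as log2 ratio to the gene's own weed-free mean, 1 added to both. The artificial columns are red throughout and most often palest for replicate 2, and biological replicate 3 holds the 2 deepest blue cells, in LOC118472992 and LOC103650874; nbis-pseudogene-2053 is the annotation's name for LOC103653874.

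The 3 artificial libraries did not contribute alike. Replicate 2 was the lowest of the artificial libraries in 19 of the 28 members (67.9%), against 33.7% of the 20938 genes, and it was the highest in 1 member. Replicate 3 was the highest in 15 members (53.6%, against 35.8% of all genes) and replicate 1 in 12 (42.9%, against 29.7%). The coefficient of variation within the artificial group had a median of 20.7% over the members and 11% over all genes. It was 23.1% and 8.97% within the weed-free group, and 27.6% and 19.5% within the biological group. The members and all genes were not matched for level, so these medians do not show that the members vary more than genes of their level.

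In the limma test of artificial against weed-free light, 9.98% of 23450 genes passed as higher and 11.9% as lower (21.8% in all) at an adjusted p under 0.1, and 27 of the 28 members passed as higher, all but LOC118472312. The rule used this contrast, so nothing is read from that share. In the test of biological against weed-free light 0.0466% of 23600 genes passed, all of them higher, and 0 members did. At an unadjusted p under 0.05 there were 0 members and 10.1% of all genes, and 0 members passed in DESeq2 or edgeR. That gene count was not stable: DESeq2 passed 501 genes (359 higher, 142 lower), and limma without biological replicate 3 passed 1936 of 23300 (1071 higher, 865 lower). In that last fit 0 members passed, and 3 members and 5255 genes had an unadjusted p under 0.05. Between the biological and artificial groups limma passed 0 of 23476 genes (0%) and 0 members, although 24 members and 1962 genes (8.36%) had an unadjusted p under 0.05. DESeq2 passed 461 genes in that comparison, 10 of them members lower under biological light, and edgeR passed 23 genes and 0 members. The comparisons share libraries, the weed-free control among them, so their results are not independent of each other.

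dxs2 (LOC606430, chromosome 7 from 14390473 to 14393729, a protein-coding gene of 3257 bp in the assembly Zm-B73-REFERENCE-NAM-5.0) had the largest ratio of the 28. It was measured at 64.3, 72.8 and 113 normalized counts in artificial replicates 1, 2 and 3, 31.6, 28.0 and 18.6 in the biological and 15.2, 37.1 and 23.7 in the weed-free replicates. All 3 artificial values lay above the other 6, the lowest of them 1.73 times the highest weed-free value, and the biological and weed-free libraries overlapped. The group means were 83.2 ± 25.8 (SD, n = 3), 26.1 ± 6.73 and 25.3 ± 11.0, a 3.29-fold difference between artificial and weed-free light. Its level was low, since the reads behind it numbered 17 to 147 per library. Its artificial mean was 1.379 TPM, a measure that scales the level to transcript length and not to the gene span in bp.

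The other genes of isoprenoid and carotenoid synthesis, taken by symbol once dxs2 was known to be a member, moved in both directions under artificial light. Of 13 tested genes 3 passed as higher, dxs2 among them, and 5 as lower under artificial light, with a median log2 fold change of -0.08 against 0.01 over all genes tested. dxs1, a second gene for the same enzyme, fell from 14891, 12889.5 and 12339.6 normalized counts in weed-free replicates 1, 2 and 3 to 6382, 10215 and 8984 in the artificial ones, a log2 fold change of -0.67 ± 0.16 (SE, adjusted p = 0.0302) in limma. In TPM, dxs1 stood at 267 in the control against 0.407 for dxs2, so the copy that fell was by far the more abundant of the pair. dxs1 read 8594, 14039 and 12678 in the biological libraries, which overlapped both other groups. It passed in 14 of 16 fits and not in those that left out weed-free replicate 1 or pooled all 9 libraries.

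The remaining calls of this route were small. dxr, for the enzyme after DXS, fell by 0.23 on the log2 scale (adjusted p = 0.0655 in limma), crtRB1, a beta-carotene hydroxylase, by 0.36 (adjusted p = 0.0483), the phytoene desaturase gene pds1 by 0.21 (adjusted p = 0.0727) and the zeta-carotene desaturase gene zds1 by 0.20 (adjusted p = 0.0874). hdr10, of the last MEP step, rose by 0.22 (adjusted p = 0.0823) and the carotenoid-cleaving CCD1 by 0.24 (adjusted p = 0.0948). Each of these 6 calls was lost in 5 to 11 of the 16 fits, among them the fit without weed-free replicate 1, without weed-free replicate 3 and without artificial replicate 1. Under biological light 0 of the 13 passed against the control in limma, DESeq2 or edgeR, and 1 had an unadjusted p under 0.05.

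**Figure D3:**
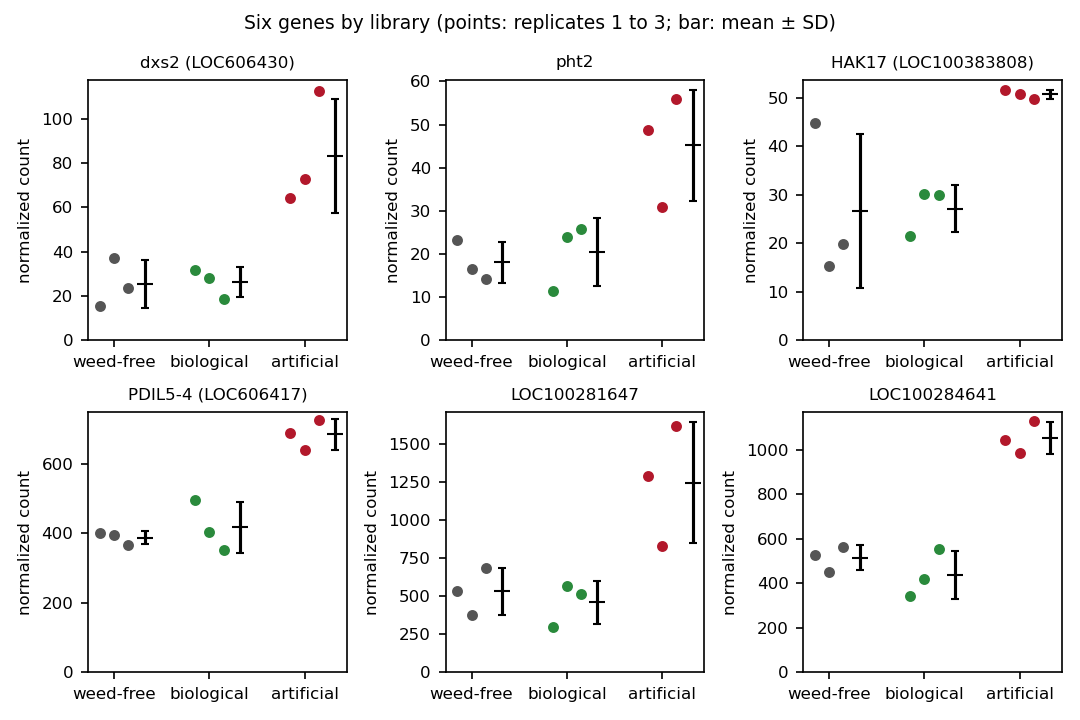
Normalized counts (vertical axes, from 0) of dxs2, pht2, HAK17, PDIL5-4, LOC100281647 and LOC100284641 in the weed-free, biological and artificial groups, with 1 point a library and the mean ± SD (n = 3) beside each group. Every artificial point lies above the other 6 of its panel, closely in HAK17, where weed-free replicate 1 reached 44.8, and widely in LOC100284641.

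pht2 (chromosome 1 from 242288491 to 242290374, 1884 bp) was measured at 48.7, 30.9 and 55.9 normalized counts in artificial replicates 1, 2 and 3, 11.4, 23.9 and 25.9 in the biological and 23.3, 16.6 and 14.2 in the weed-free replicates. The artificial values again lay above all others, by 1.20 times at the closest, and the biological and weed-free ranges overlapped. The means were 45.2 ± 12.9 (SD, n = 3) under artificial, 20.4 ± 7.85 under biological and 18.0 ± 4.70 under weed-free light, 2.5-fold between the first and the last. Reads per library numbered 9 to 73.

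The annotated phosphate transporters of this name were taken once pht2 was known to be a member. Of 10 listed genes 6 were in the table and 4 reached the filter of the test. Of these pht1, pht2 and pht3 passed as higher and 0 as lower, against 9.98% of all genes as higher. Only 2 of these calls lie outside the members. The median log2 fold change was 1.03 against 0.01 over all genes, and it takes in pht2, which was chosen on this contrast. pht3 rose from 375, 279.8 and 346 normalized counts in the weed-free to 719.6, 664 and 763 in the artificial replicates, a log2 fold change of 1.11 ± 0.12 (SE, adjusted p = 0.00315) in limma. pht1 rose from 838, 1121 and 853 to 1740.0, 1366 and 1281, a log2 fold change of 0.64 ± 0.14 (SE, adjusted p = 0.024). pht7 gave 0.96 ± 0.38 (SE, adjusted p = 0.13) and did not pass.

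The rule required the biological mean of pht2 to lie near the control, a condition the other genes were not under. In the biological libraries pht3 read 488, 457 and 565, between the ranges of the control and of artificial light. pht1 read 1094, 1914 and 1221, with replicate 1 inside the weed-free range. pht7 read 41.7, 22.8 and 27.5, above its weed-free values of 17.9, 7.67 and 17.1. 0 of the 4 passed under biological light in limma, DESeq2 or edgeR, where 3 had an unadjusted p under 0.05, and whether pht2 differs from pht3 in its response was not tested. Without biological replicate 3, 1 of them, pht3, passed there as higher in limma (log2 fold change 0.51 ± 0.14 SE, adjusted p = 0.0881). The call of pht3 held in all 16 fits, that of pht1 was lost when all 9 libraries were fitted together, and that of pht2 in the same fit and without weed-free replicate 3 or artificial replicate 1. A list of metal, phosphate and sulfate transporters holds the same 4 and ys1 (LOC541800), the iron-phytosiderophore transporter. Of its 5 tested genes 4 passed as higher, and 3 of these are not members. ys1 varied widely, from 52.8, 75.4 and 391 in the weed-free to 2216, 332 and 921 in the artificial replicates (log2 fold change 2.91 ± 0.80 SE, adjusted p = 0.0462 in limma). Its call was lost in 5 fits, those without weed-free replicate 1, weed-free replicate 2 or artificial replicate 1 among them. The biological replicates of ys1 read 7829, 335 and 472, the first being the highest of all libraries (log2 fold change 3.20 ± 1.27 SE against the control, adjusted p = 0.466 in limma).

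HAK17 (LOC100383808, chromosome 7 from 129030028 to 129059825) was the longest member at 29798 bp. It was measured at 51.6, 50.8 and 49.8 normalized counts in artificial replicates 1, 2 and 3, 21.5, 30.1 and 29.9 in the biological and 44.8, 15.3 and 19.9 in the weed-free replicates. The artificial replicates were nearly equal, at 50.7 ± 0.93 (SD, n = 3), while the weed-free replicates ranged widely, at 26.7 ± 15.8, and weed-free replicate 1 came within 1.11 times of the lowest artificial value. Without that library the log2 ratio of artificial to weed-free means was 1.47 in place of 0.90. Its TPM was among the lowest, 0.915 in the artificial mean.

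Of 24 listed HAK genes, taken once HAK17 was known to be a member, 20 were in the table and 18 were tested. Under artificial light 8 of them passed as higher and 2 as lower, against 9.98% and 11.9% of all genes. HAK17, chosen on this contrast, is among the 8, and the other 7 are not members. The median log2 fold change was 0.28, HAK17 included. HAK3 had the largest rise, from 11.6, 14.1 and 12.3 normalized counts in the weed-free to 34.1, 31.9 and 36.7 in the artificial replicates, with a log2 fold change of 1.37 ± 0.26 (SE, adjusted p = 0.0135) in limma. Its biological values of 43.0, 24.9 and 51.7 also lay above all 3 weed-free values, unlike those of HAK17, though HAK3 did not pass there (adjusted p = 0.256). HAK2 rose by 0.68 ± 0.12 (SE, adjusted p = 0.0116), HAK11 by 0.91 ± 0.22 (SE, adjusted p = 0.0303) and HAK18 by 0.59 ± 0.10 (SE, adjusted p = 0.0097) on the log2 scale. HAK7, HAK10 and HAK15 rose by 0.39, 0.29 and 0.28, with adjusted p from 0.0307 to 0.0868.

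HAK12 and HAK24 went the other way. HAK12 fell from 68.9, 66.4 and 91.9 in the weed-free to 21.4, 27.9 and 49.0 in the artificial replicates, a log2 fold change of -1.25 ± 0.30 (SE, adjusted p = 0.0305) in limma, and read 64.5, 68.5 and 67.1 in the biological ones, which overlapped the control. HAK24 gave -0.49 ± 0.12 (SE, adjusted p = 0.0355). HAK18 came nearest to HAK17 in pattern, at 2304, 1854 and 2358 under artificial, 1799, 1421 and 1397 under biological and 1477, 1397 and 1443 under weed-free light, but its ratio stayed below the limit of the rule. The calls of HAK2, HAK3 and HAK18 held in all 16 fits, HAK11 lost its call without artificial replicate 1 and HAK12 without weed-free replicate 3, and HAK7, HAK10 and HAK24 lost theirs in 2 to 4 fits, with weed-free replicates 1, 2 or 3 or artificial replicate 1 left out among them. HAK15 passed in 5 of 16 fits and lost its call without any of weed-free replicates 1, 2 and 3 or artificial replicates 1 and 2, and HAK17 passed in 7 and lost its call without any one of the 6 libraries except weed-free replicate 1, and DESeq2 and edgeR passed neither. Under biological light 0 of the 18 passed in limma and edgeR and 2 in DESeq2, with 5 at an unadjusted p under 0.05. Without biological replicate 3, 4 of them, HAK3, HAK7, HAK9 and HAK11, passed there as higher in limma, with log2 fold changes from 0.61 to 1.31 and adjusted p from 0.0488 to 0.0985.

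**Figure D4:**
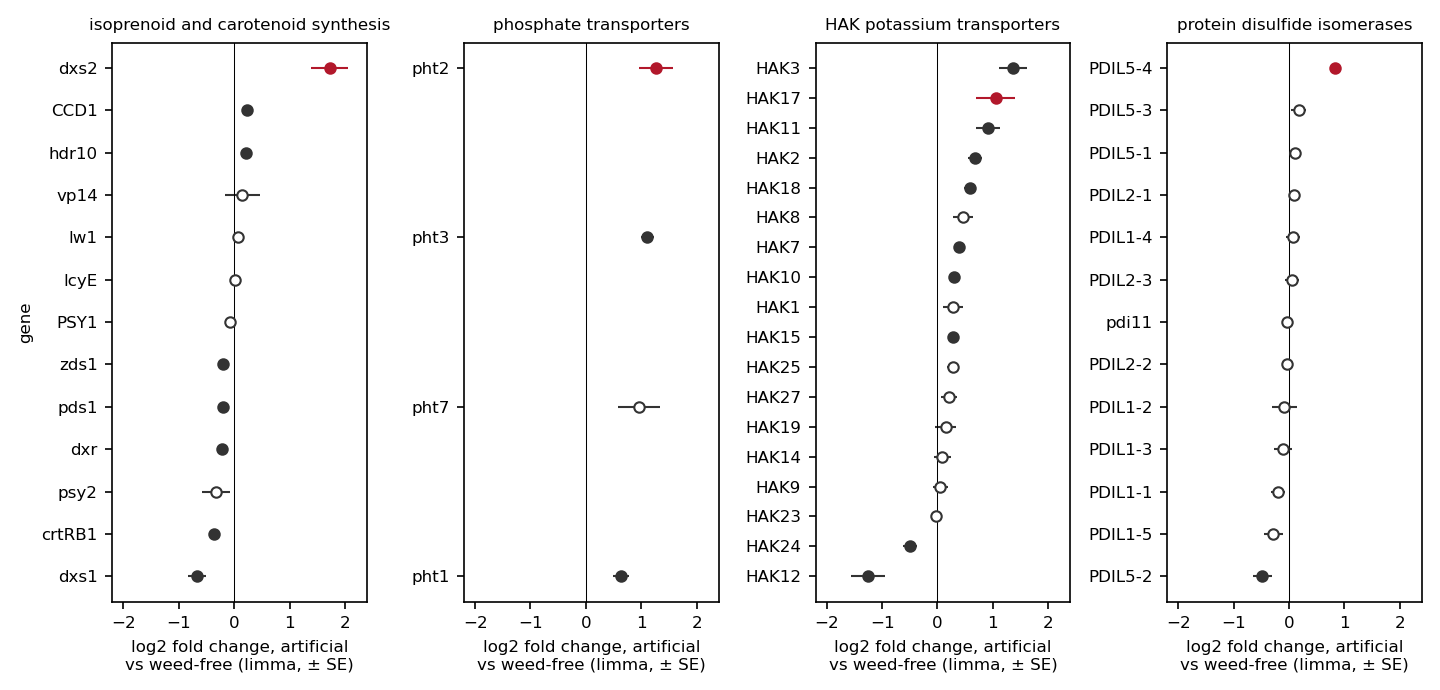
Log2 fold change of artificial against weed-free light (horizontal axes, limma estimate ± SE, 6 libraries) for the tested genes of the 4 families, with the member of each in red and filled points for genes at an adjusted p under 0.1. dxs2 and PDIL5-4 lie apart at the top of their families, at 1.72 and 0.82. pht2 is the highest of its family too, at 1.26, but close to pht3 at 1.11, and HAK17 sits among other genes that passed as higher.

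PDIL5-4 (LOC606417, also pdi12, chromosome 2 from 210334259 to 210343899, 9641 bp) was measured at 688, 638 and 726 normalized counts in artificial replicates 1, 2 and 3, 496, 403 and 352 in the biological and 399, 395 and 365 in the weed-free replicates. The lowest artificial value was 1.29 times the highest of the others, and the spread within the artificial and weed-free groups was small. The means were 684 ± 44.0 (SD, n = 3) under artificial, 417 ± 72.7 under biological and 386 ± 18.8 under weed-free light, 1.77-fold between the first and the last. Of the 13 protein disulfide isomerase genes tested, PDIL5-4 was the one that passed as higher under artificial light, and PDIL5-2 passed as lower, with a log2 fold change of -0.49 ± 0.17 (SE, adjusted p = 0.0922) in limma. The other 11 had log2 fold changes from -0.28 to 0.17 and did not pass, and the median of the 13 was -0.04. PDIL5-2 lost its call in 7 of 16 fits, those without weed-free replicates 2 or 3 or artificial replicates 1 or 3 among them, and 0 of the 13 passed under biological light in limma, DESeq2 or edgeR, with 2 at an unadjusted p under 0.05.

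LOC100281647 and LOC100284641 are neighbours and 2 of the most abundant members. They lie on chromosome 7 from 31825145 to 31825771 and from 31966063 to 31966731, on the same strand, 140 kb apart with 0 annotated genes between them, and they are the 2 shortest members at 627 and 669 bp. LOC100281647 was measured at 1290.1, 830.4 and 1617 normalized counts in artificial replicates 1, 2 and 3, 297, 569 and 513 in the biological and 536, 374 and 685 in the weed-free replicates. LOC100284641 was measured at 1042, 984 and 1128 normalized counts in artificial replicates 1, 2 and 3, 341, 419.5 and 555 in the biological and 528, 452 and 562 in the weed-free replicates. Both were highest in artificial replicate 3 and lowest in biological replicate 1. The biological mean was below the weed-free mean in both, with log2 ratios of -0.21 and -0.23, the 2 lowest of the 28. LOC100284641 had the widest separation of all members, its lowest artificial value being 1.75 times the highest of the others, and the means of the 2 genes under artificial light were 1246 ± 395 and 1051 ± 72.2 (SD, n = 3). In TPM they were the 2 highest members, at 90.3 and 67.5 in the artificial mean. The study's methods state default settings for a counting tool other than the one in the submitters' notes, so how reads that match both genes were treated in these values was not settled here, and the pair may not be independent.

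The next annotated gene before LOC100281647, LOC103632221 at a distance of 74.5 kb, fell under artificial light (log2 fold change -0.61, adjusted p = 0.0256 in limma). Over all members, 31 nearest neighbours on either side that are not members were tested, and 4 passed as higher and 5 as lower, with a median log2 fold change of 0.13 against 0.01 over all genes. Those shares are 12.9% and 16.1%, against 9.98% and 11.9% of all genes. The neighbour with the largest change was LOC100284250, 53.0 kb from LOC103646485 on the other strand, which fell by 1.67 (adjusted p = 0.0210). LOC100279907 beside PDIL5-4 rose by 0.69 (adjusted p = 0.0163) and LOC100273519 beside HAK17 by 0.62 (adjusted p = 0.0173). Of the 9 calls, that of LOC100194043 (higher) and those of LOC100191476 and LOC100303903 (lower) were lost without artificial replicate 1 and without at least 1 weed-free replicate, and the first 2 also without artificial replicate 2.

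The most abundant member in normalized counts was LOC103646485 (chromosome 2 from 57364927 to 57369928, 5002 bp), at 1730.2, 1357 and 1859 normalized counts in artificial replicates 1, 2 and 3, 1020.2, 913 and 764 in the biological and 992, 823 and 775 in the weed-free replicates. LOC103646635 (chromosome 2 from 83162109 to 83165476, 3368 bp) was measured at 1299, 1117 and 1134 normalized counts in artificial replicates 1, 2 and 3, 718, 687 and 360.3 in the biological and 659, 624 and 639.6 in the weed-free replicates. The weed-free means were 863 ± 114 and 641 ± 17.7 (SD, n = 3), and biological replicate 3 was the lowest of the 9 libraries in each. LOC109943750 (chromosome 1 from 230029633 to 230030341, 709 bp) was measured at 872, 965 and 1001 normalized counts in artificial replicates 1, 2 and 3, 519.6, 563 and 758 in the biological and 518, 668 and 418 in the weed-free replicates, with biological replicate 3 the highest of its group. The log2 ratios of artificial to weed-free means were 0.93, 0.88 and 0.82.

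LOC103650157, LOC100272480 and LOC103650480 also had artificial means above 500. LOC103650157 (chromosome 3 from 64877326 to 64879529) was measured at 779, 469.5 and 543 normalized counts in artificial replicates 1, 2 and 3, 325, 175 and 349 in the biological and 256, 359 and 236 in the weed-free replicates, and its biological and weed-free means, 283 and 284, differed by less than their SD. LOC100272480 (chromosome 1 from 103507867 to 103509373) was measured at 522, 442 and 602 normalized counts in artificial replicates 1, 2 and 3, 249, 288 and 390.2 in the biological and 229, 279 and 257 in the weed-free replicates, and its biological ratio of 0.28 was the nearest to the upper limit of the band. LOC103650480 (chromosome 3 from 120931088 to 120936373) was measured at 675, 455 and 719 normalized counts in artificial replicates 1, 2 and 3, 419.7, 326 and 328 in the biological and 390.3, 382 and 286 in the weed-free replicates, and its artificial ratio of 0.80 was the nearest to the lower limit of the rule.

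After dxs2 the largest ratios belonged to LOC100274520, LOC100191290, pht2 and pco103560(319), from 1.35 down to 1.28. LOC100274520 (chromosome 3 from 176082026 to 176085457) rested on few reads, 5 to 50 per library, and was measured at 47.7, 27.9 and 38.3 normalized counts in artificial replicates 1, 2 and 3, 6.32, 17.7 and 19.4 in the biological and 18.8, 8.94 and 15.2 in the weed-free replicates. LOC100191290 (chromosome 2 from 107640016 to 107641393) was measured at 540.4, 369 and 564 normalized counts in artificial replicates 1, 2 and 3, 144, 158 and 338 in the biological and 239, 203 and 139 in the weed-free replicates, and biological replicate 3, at 338, came close to artificial replicate 2. pco103560(319) (chromosome 1 from 264987520 to 264988471), a name that comes from a clone, was measured at 299.9, 283 and 823 normalized counts in artificial replicates 1, 2 and 3, 216, 201 and 263 in the biological and 239, 175 and 165 in the weed-free replicates. Its ratio leaned on 1 library, since artificial replicate 3 was 2.74 times the next highest value and the log2 ratio without it was 0.59 in place of 1.28.

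LOC103644195, LOC103647445 and LOC100281314 lay at middle levels. LOC103644195 (chromosome 1 from 296322216 to 296324837) was measured at 396, 292 and 280.2 normalized counts in artificial replicates 1, 2 and 3, 212, 155 and 195 in the biological and 145, 185 and 182 in the weed-free replicates. LOC100281314 (chromosome 10 from 4269579 to 4270726) was measured at 166, 139.6 and 158 normalized counts in artificial replicates 1, 2 and 3, 106, 82.0 and 97.7 in the biological and 94.9, 47.3 and 104 in the weed-free replicates. In both, every artificial value was at least 1.31 times every other. LOC103647445 (chromosome 2 from 187696448 to 187702955) was measured at 353, 215 and 238 normalized counts in artificial replicates 1, 2 and 3, 195, 207 and 106 in the biological and 167, 146 and 124 in the weed-free replicates, and biological replicate 2 came within 1.04 times of artificial replicate 2. On TPM values LOC103647445 and LOC103650480 were the 2 members whose artificial libraries no longer lay above all others.

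LOC100501100, LOC103654622, LOC107546775 and LOC118472312 had artificial means from 32.2 to 55.2 normalized counts, where a few reads set the order of the libraries. LOC100501100 (chromosome 1 from 7432900 to 7434829) was measured at 53.6, 38.9 and 32.1 normalized counts in artificial replicates 1, 2 and 3, 7.58, 30.1 and 17.0 in the biological and 11.6, 24.3 and 15.2 in the weed-free replicates. LOC103654622 (chromosome 4 from 220195305 to 220196613) was measured at 56.5, 30.9 and 78.1 normalized counts in artificial replicates 1, 2 and 3, 24.0, 28.0 and 28.3 in the biological and 28.6, 28.1 and 14.2 in the weed-free replicates. In these genes the lowest artificial value exceeded the highest other one by 2.04 and 2.26 normalized counts, which is about 2 reads. LOC107546775 (chromosome 10 from 131740078 to 131741235) was measured at 39.9, 32.9 and 45.2 normalized counts in artificial replicates 1, 2 and 3, 21.5, 28.0 and 15.3 in the biological and 26.0, 19.2 and 16.1 in the weed-free replicates. LOC118472312 (chromosome 6 from 112937582 to 112940591) was measured at 39.9, 25.9 and 30.6 normalized counts in artificial replicates 1, 2 and 3, 13.9, 17.7 and 18.6 in the biological and 13.4, 24.3 and 15.2 in the weed-free replicates, and it was the member that did not pass against the control.

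4 members are not annotated as protein coding. LOC109939254 (chromosome 5 from 81251263 to 81255999), a transcribed pseudogene, was measured at 719, 455 and 448 normalized counts in artificial replicates 1, 2 and 3, 391, 277 and 166 in the biological and 282, 302 and 217 in the weed-free replicates. LOC100216571 (chromosome 3 from 233281495 to 233285109), the other transcribed pseudogene, was measured at 109, 64.8 and 62.0 normalized counts in artificial replicates 1, 2 and 3, 53.1, 38.4 and 44.4 in the biological and 38.5, 43.4 and 43.6 in the weed-free replicates. In both, artificial replicate 1 was far above replicates 2 and 3, which were nearly level. LOC103653874 (chromosome 4 from 158172003 to 158176708), a pseudogene, was measured at 31.2, 32.9 and 38.3 normalized counts in artificial replicates 1, 2 and 3, 19.0, 24.9 and 9.69 in the biological and 14.3, 14.1 and 20.8 in the weed-free replicates, from 11 to 50 reads per library. A pseudogene may share reads with its parent gene, and the treatment of such reads in these values was not settled by the sources, so these 3 levels are uncertain.

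LOC109943810 (chromosome 1 from 294608167 to 294608991, 825 bp), the one long noncoding RNA of the group, was measured at 47.7, 37.9 and 45.9 normalized counts in artificial replicates 1, 2 and 3, 24.0, 28.0 and 12.1 in the biological and 17.9, 26.8 and 19.0 in the weed-free replicates. It ends 20 bp from the next gene, LOC103645689, on the same strand. That gene is not a member and rose as well, with means of 50 normalized counts under weed-free, 64.0 under biological and 97.6 under artificial light (log2 fold change 0.93, adjusted p = 0.0169 in limma), and its call held in all 16 fits. With 20 bp between them the reads of the 2 genes may not be told apart. On TPM values the log2 ratio of artificial to weed-free means of LOC109943810 was 0.59 in place of 1.01. That of biological to weed-free means was -0.33 on TPM values, outside the band.

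In LOC103650874, LOC118472992 and LOC103647445 the biological mean near the control came from biological replicate 3, the library that stood apart. LOC103650874 (chromosome 3 from 170672154 to 170682611) was measured at 49.7, 43.9 and 51.3 normalized counts in artificial replicates 1, 2 and 3, 43.0, 36.3 and 0 in the biological and 31.3, 24.3 and 23.7 in the weed-free replicates. Biological replicates 1 and 2 were above all 3 weed-free values, while replicate 3 had 0 reads, which allows up to 2.42 normalized counts. LOC118472992 (chromosome 7 from 163490640 to 163495301) was measured at 126, 137 and 128 normalized counts in artificial replicates 1, 2 and 3, 113, 80.0 and 15.3 in the biological and 68.9, 47.3 and 69.2 in the weed-free replicates, so that replicates 1 and 2 were again above the weed-free range and replicate 3 was well below it. Without biological replicate 3 the log2 ratio of biological to weed-free means was 0.57 in LOC103650874 and 0.63 in LOC118472992, both outside the band. It also left the band upwards in LOC103647445 (0.46), LOC103653874 (0.40) and LOC109939254 (0.32), and downwards in LOC100284641 (-0.43) and LOC100191290 (-0.36). The other 21 members stayed within it. In LOC103647445 biological replicates 1 and 2 (195 and 207) also lay above the weed-free range (124 to 167), and replicate 3 (106) lay below it. LOC118472992 is overlapped on the other strand by LOC100279054, which had means of 60.2, 49.9 and 69.8 normalized counts under weed-free, biological and artificial light (log2 fold change 0.22, adjusted p = 0.561 in limma), and whether the counting used strand was not settled by the sources.

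In TPM the members spanned a wide range, from 0.509 in LOC103650874 to 90.3 in LOC100281647 in the artificial means. On TPM values 26 of the 28 kept every artificial library above all others, against 4.03% of the 20938 genes, 24 had a log2 ratio of at least 0.8, and 26 had a biological ratio within the band. 24 members are annotated as protein coding (92.989% of all genes that passed the limits on level are), and their median length, introns included, was 2816 bp for the 28 against 3924 bp for all genes. Chromosome 1 held 7 of them, chromosomes 2, 3 and 7 held 5 each, chromosomes 4 and 10 held 2 each and chromosomes 5 and 6 held 1 each. Apart from the pair on chromosome 7, the closest members were LOC109943810 and LOC103644195 on chromosome 1, 1713 kb apart with 47 annotated genes between them. In whole leaves a higher level may come from more cells of a type or from more RNA per cell, which cannot be told apart here.

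The limits of the rule cut through a continuous range. At the limit on the artificial ratio, LOC103650480 (0.80), PDIL5-4 (0.82) and LOC109943750 (0.82) were just inside and LOC103643994 (0.79), LOC100272821 (0.79) and LOC542651 (0.78) just outside. At the limit on separation, the lowest artificial value over the highest other one was 1.02 in LOC103650874, 1.04 in LOC103647445 and 1.07 in LOC100501100, and 0.99 in LOC542117, 0.98 in LOC100217298 and 0.98 in LOC103654303. At the band on the biological ratio, LOC100272480 (0.28), pco103560(319) (0.23) and LOC100284641 (-0.23) were inside and LOC100280999 (-0.31), LOC100283734 (0.31) and LOC100279558 (0.34) outside. At the limit on the mean, LOC118472312 (22.2), LOC100274520 (22.2) and LOC103653874 (22.8) were inside and LOC103634752 (17.9), LOC103642786 (14.9) and LOC100282652 (13.5) outside.

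Membership also changed with single libraries. The number of genes that met the rule was 28 with all 9 libraries, 100 without artificial replicate 2, 53 without artificial replicate 3, 52 without biological replicate 3 and 29 to 42 without any one of the others. Leaving out a library can only ease the condition on separation, while the ratios can move either way, so a larger number says nothing of stability. 4 genes met it in all 9 of these runs: LOC103650157, LOC109943810, LOC103646485 and LOC103646635. dxs2 met it in 8, pht2 and PDIL5-4 in 7, HAK17 in 6, and LOC103650874 and LOC109943750 in 4, the fewest.

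**Figure D5:**
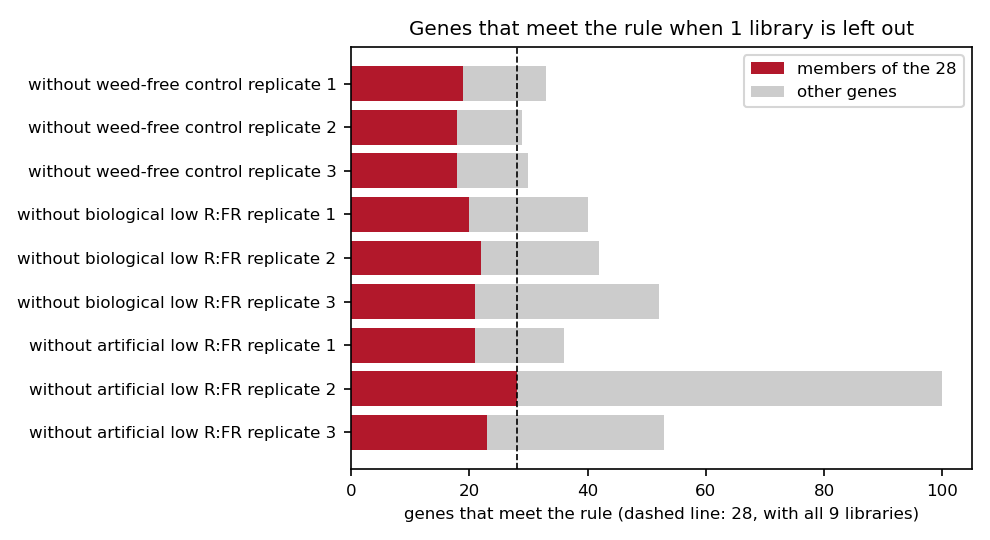
Number of genes that meet the rule (horizontal axis) when 1 of the 9 libraries is left out (vertical axis), with members of the 28 in red and other genes in grey. All 28 still meet it without artificial replicate 2, together with 72 other genes, and 18 to 23 of the 28 do so without any one of the other libraries. Artificial replicate 2 was the lowest of its group in 19 members, so leaving it out eases the rule for them.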

How the data were processed

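Leaf RNA of 9 pools was sequenced from libraries made with an Illumina TruSeq kit. The submitters' processing notes name Bowtie2 2.4.3, HTSeq 0.13.5 and DESeq2 1.30.1, while the study's methods name other tools for mapping and counting, run at default settings unless stated. Which of these made the deposited values, and so how strand and reads that match several genes were treated, was not settled. The main signal values deposited by the authors cover 30184 genes and are read counts scaled by a DESeq2 size factor for each library, here called normalized counts. The authors also deposited TPM, FPKM and coverage (signal) values per library, of which TPM was used here and the others were left out. The deposited tables of the authors' own comparisons hold fold changes and p-values and were not used.

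In each library 100% of the normalized counts were whole multiples, within 0.01, of what 1 read is worth, and whole reads were recovered from them. The main test was limma 3.58.1 (R 4.3.3) with a variance trend on log2(value + 1), over the 6 libraries of a comparison and genes with at least 10 normalized counts in at least 3 of them. Fold changes on this scale understate the change of low genes. The Benjamini-Hochberg adjustment took in every gene tested, and the limit was an adjusted p under 0.1. DESeq2 1.42.0 and, chosen after seeing the data, edgeR 4.0.16 were run on the recovered reads, and limma was tested on simulated data. The 16 fits of a comparison are these 3, pseudocounts of 0.5 and 5, no filter, TPM (pseudocount 0.1), TMM factors, all 9 libraries, the replicate block and each of the 6 libraries left out.

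Of 30184 identifiers 29125 matched RefSeq (Zm-B73-REFERENCE-NAM-5.0), which gave names, positions and kinds of genes but no product names. The rule for naming genes took members with a symbol, the 5 with the highest artificial mean, the 5 with the largest ratio, genes at each limit of the rule and called genes of lists that hold a member. A part of it that needed product names could not be applied, and the remaining members, the neighbouring genes and the single genes of the families were named after their values were seen. Of 24 lists only those with symbol patterns could be matched, and 1 of them held a member and is reported. Most members carry no name that tells a family, so such matching could not place them in any list. Another 4 families were added once the members were known. The members and lists were chosen with earlier results of these data known. Replicate numbers were checked for pairing by the correlation of same-numbered libraries after group means were removed. It was 0.124, 0.255 and 0.146 between biological and artificial light, above a limit of 0.1 for every number. In the other comparisons it was below that limit for at least 1 number. No test stands behind the limit, so whether the numbers mark shared blocks is not known.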

Additional observations from a re-analysis of the deposited data

How the results depend on the processing

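Between artificial and weed-free light limma passed 5121 genes. The number was 2931 at an adjusted p under 0.05, 3381 on TPM values and 1134 with all 9 libraries in 1 fit, and it ran from 2305 to 5408 when 1 library was left out. Between biological and weed-free light it was 11, with 2 at an adjusted p under 0.05, 33 on TPM values, 94 with all 9 libraries and 501 in DESeq2, and 0 to 1936 when 1 library was left out, the highest without biological replicate 3. Between biological and artificial light it was 0, with 24 at a pseudocount of 5, 263 with all 9 libraries, 461 in DESeq2 and 23 in edgeR, and 0 to 104 when 1 library was left out. The cause of these differences was not tested.

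Of the 28 members 27 passed against the control, 11 with all 9 libraries in 1 fit, and 17 to 27 when 1 library was left out, 17 both without weed-free replicate 3 and without artificial replicate 1. The number of genes that met the rule was 17 at a mean of at least 50, 72 with no minimum mean, 86 with no condition on overlap, 15 at a log2 ratio of at least 1 and 48 with a biological ratio within 0.5, and 29 to 100 when 1 library was left out. On TPM values it was 39, of which 21 were members. In 193 of 196 alternatives a member's log2 ratio moved by less than its spread, and in 3 it moved further (pco103560(319) 0.59 without artificial replicate 3, LOC109943810 0.59 on TPM values and HAK17 1.47 without weed-free replicate 1). In 0 it changed sign. With a library left out it could not, since the rule put every artificial value above every weed-free value, and TPM values come from the same libraries. Of 225 list counts 30 moved by more than 1.5 times.

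With the replicate number as a block 26 members passed against the control, 1 gene passed between biological and weed-free light and 0 between biological and artificial light. The last comparison had 0 calls without the block as well, so calls cannot show what the block did there. Genes at an unadjusted p under 0.05 in limma numbered 1962 without the block and 2331 with it. Correlations of same-numbered libraries were -0.003, 0.083 and 0.095 for artificial and weed-free light and 0.124, -0.007 and 0.056 for biological and weed-free light.

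Depth limits the 12 members with artificial means under 100 normalized counts, and 3 pools a group limit all comparisons. In some of the 12 a few reads decide the order of libraries, while in dxs2 the lowest artificial value lay 27.2 normalized counts above the highest other.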
